A study of Homo sapiens with 24 samples.

Results

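The genes described here are those whose 5′ tag level moved in one direction in all 4 lines of a glioblastoma panel (DBTRG-05MG, T98G, U251MG, U87MG) when variants overexpressing WWOX were set against control variants. Cap analysis gene expression sequencing (CAGE-Seq) was performed on 24 libraries, 3 of the “Vec” and 3 of the “WWOX” variant of each line. Each variant came from stable lentiviral transduction of an established cell line, with pLenti-GIII-CMV-GFP-2A-Puro particles carrying WWOX or with Puro-Blank particles, in the presence of polybrene and followed by puromycin selection. Puromycin resistance was therefore shared by both variants, the CMV promoter drove the transgene, and each variant was a single selected population per line. T98G was grown in MEM, U87MG and U251MG in EMEM, and DBTRG-05MG in RPMI 1640, so line and medium cannot be told apart, but both variants of a line shared their medium. The study describes the 3 libraries of a variant as biological triplicates, the labels do not say how they were separated, and all p-values below measure the spread between these libraries.

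WWOX encodes a tumor suppressor with WW domains, which bind proline-rich motifs of partner proteins, and an oxidoreductase domain. It is often lost or reduced in cancers, glioblastoma included. CAGE captures capped RNA and reads its 5′ end, so a gene's tags, given as CPM (tags per 1000000 in the library), count transcripts begun at its start sites and need no correction for transcript length.

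For each gene, the difference of “WWOX” from “Vec” was taken within each line on the log2(CPM + 0.5) scale after TMM scaling, and the 4 differences were averaged, so that every line counted equally and entered as a block. Fold changes on this scale understate the change of genes with few tags. Of 43037 genes in the deposited table, 11900 autosomal genes with 5 CPM or more in at least 1 library were tested with limma, and a gene was called at a Benjamini-Hochberg adjusted p under 0.05. The mean of the 4 lines was called in 194 genes, 1.63% of those tested, with 77 rises (0.647%) and 117 falls (0.983%). A single sign in all 4 lines, at any p, was seen in 2218 genes (18.6%), with 948 (7.97%) higher and 1270 (10.7%) lower. Both conditions held for 80 genes (0.672% of those tested), and these are called shared genes from here on. They comprised 37 genes that rose (0.311%) and 43 that fell (0.361%) in “WWOX”. Their mean log2 fold changes ran from 0.41 to 1.46 for the rises, with a median of 0.74, and had a median of −0.81 for the falls, the largest of which was −2.63. The threshold fell between adjusted p-values of 0.0494 and 0.0506.

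The size of this set depended on how the lines were weighed against each other. With cell line and variant as additive terms, so that disagreement between lines enters the error, 5 genes were called and 4 of them were shared. Those 4 were CXCL14, TAGLN3, DAAM2 and RNASE1, all lower in “WWOX”. With the 4 line differences as the only replicates, which leaves 3 residual degrees of freedom, limma called 0 genes at the adjusted threshold and 1072 at an unadjusted p under 0.05.

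**Figure D1:**
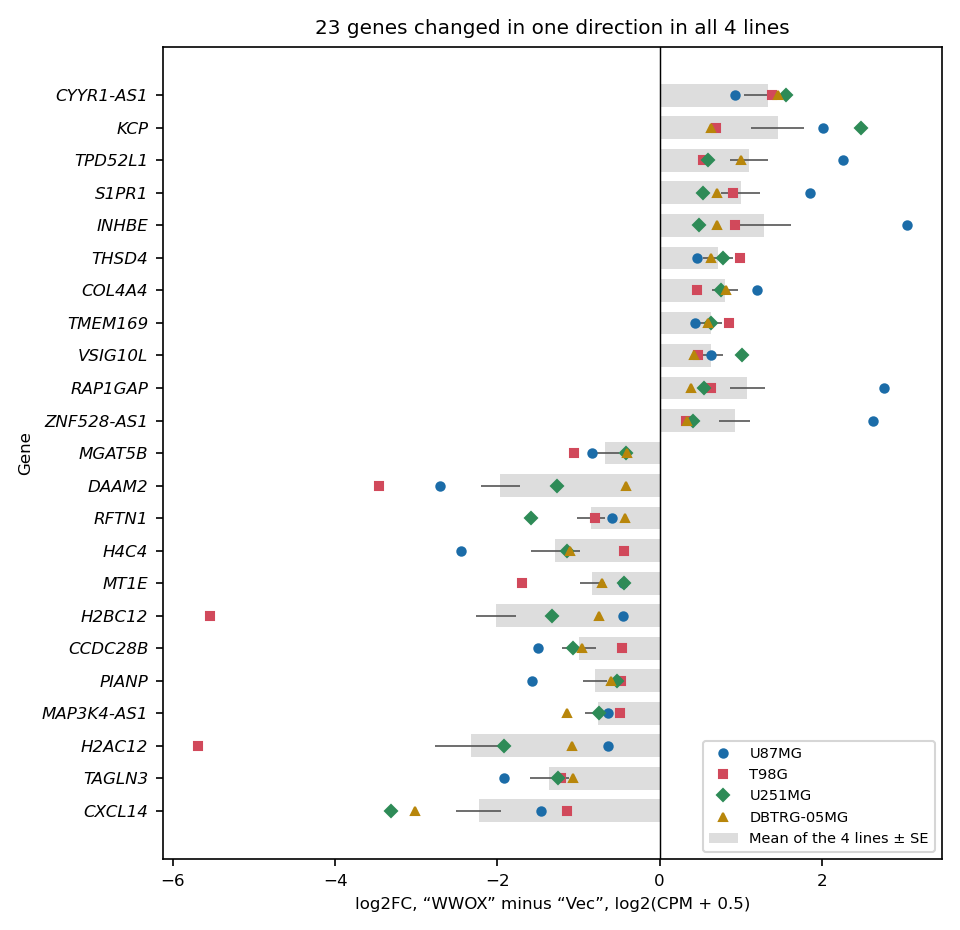
The log2 fold change of “WWOX” against “Vec” is plotted for shared genes with the largest smallest-of-4 changes, with 1 point for each of the 4 lines and the mean of the 4. Every gene keeps its sign in all 4 lines, while the points of 1 gene often lie far apart, as for H2BC12 with −0.45 in U87MG and −5.55 in T98G.

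Total tags per library ran from 10756072 to 16953689, and 3 tags corresponded to 0.177 to 0.279 CPM. The neural and glioblastoma markers summed to between 920 and 5777 CPM in every library, while immune markers reached at most 1.19 CPM and endothelial markers at most 15.4 CPM. Markers of epithelial cells, which include keratins, summed to 928 to 1291 CPM in “Vec” and 505 to 755 CPM in “WWOX” of DBTRG-05MG, reached 391 CPM in T98G and stayed under 1 CPM in U87MG. Fibroblast and mural markers summed to 169 to 523 against 84.8 to 185 CPM in U87MG and 56.0 to 81.6 against 35.4 to 39.4 CPM in T98G. The part of these differences between variants in the results below was not tested. Tags assigned to WWOX itself were 40.1, 33.9 and 39.8 CPM in “Vec” and 66.0, 61.3 and 61.0 CPM in “WWOX” of U87MG. In T98G they were 38.6, 57.2 and 34.2 against 45.1, 61.8 and 60.0 CPM, and in DBTRG-05MG 20.4, 22.2 and 21.3 against 32.0, 28.2 and 28.0 CPM. In U251MG they were 31.4, 36.8 and 32.1 CPM in “Vec” against 56.7, 17.4 and 38 CPM in “WWOX”, where the library labelled U251MG “WWOX” replicate 2 lay below all 3 “Vec” libraries. The mean difference was 0.35 on the log2 scale (SE 0.111, limma adjusted p = 0.122; exact two-sided permutation within lines p = 0.00432), and the 4 lines gave 0.66, 0.38, −0.01 and 0.39. A transcript begun in the vector need not give a tag in WWOX, so these tags are an incomplete check of the labels. Without the library labelled U251MG “WWOX” replicate 2, the called genes numbered 745 and the shared genes 454, and 77 of the 80 were among them.

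Promoter windows are shown for the 4 genes that were also called with additive terms, and for H2BC12 from the neighbouring shared pair on chromosome 6. Both genes of the shared pair on chromosome 19 are included. CAGE tags begin at start sites, but the values here are per gene, so the start site behind the tags is not known. The windows are RefSeq sequences of GRCh38.p14, from 250 bases before to 50 after an annotated start. They are written 5′ to 3′ on the strand of the gene. Capitals mark matches, on either strand, to the promoter motif TATAAA of the basal factors, to the CCAAT box, to the octamer ATTTGCAT or to the GC box, which reads GGGCGG.
CXCL14: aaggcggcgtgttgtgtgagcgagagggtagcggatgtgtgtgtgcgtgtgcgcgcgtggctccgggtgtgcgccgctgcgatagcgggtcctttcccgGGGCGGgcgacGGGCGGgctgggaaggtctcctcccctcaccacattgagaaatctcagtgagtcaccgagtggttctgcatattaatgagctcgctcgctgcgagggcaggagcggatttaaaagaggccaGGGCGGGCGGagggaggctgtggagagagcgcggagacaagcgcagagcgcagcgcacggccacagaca
TAGLN3: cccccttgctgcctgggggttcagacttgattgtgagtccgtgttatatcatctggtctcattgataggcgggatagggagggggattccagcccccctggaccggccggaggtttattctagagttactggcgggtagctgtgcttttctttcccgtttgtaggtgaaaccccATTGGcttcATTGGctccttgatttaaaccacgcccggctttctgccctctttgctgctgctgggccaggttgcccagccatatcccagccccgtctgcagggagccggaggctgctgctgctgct
DAAM2: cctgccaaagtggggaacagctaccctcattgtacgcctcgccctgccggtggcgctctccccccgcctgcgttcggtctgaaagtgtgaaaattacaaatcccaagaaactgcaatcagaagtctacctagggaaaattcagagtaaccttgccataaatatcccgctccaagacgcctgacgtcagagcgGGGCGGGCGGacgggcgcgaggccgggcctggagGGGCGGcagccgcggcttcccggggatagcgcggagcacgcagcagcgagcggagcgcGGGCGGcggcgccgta
RNASE1: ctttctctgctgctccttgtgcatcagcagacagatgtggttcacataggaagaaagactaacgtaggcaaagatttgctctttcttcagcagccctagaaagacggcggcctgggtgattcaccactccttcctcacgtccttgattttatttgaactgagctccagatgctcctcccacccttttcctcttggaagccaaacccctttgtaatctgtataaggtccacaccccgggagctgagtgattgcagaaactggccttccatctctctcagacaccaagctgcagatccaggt
H2BC12: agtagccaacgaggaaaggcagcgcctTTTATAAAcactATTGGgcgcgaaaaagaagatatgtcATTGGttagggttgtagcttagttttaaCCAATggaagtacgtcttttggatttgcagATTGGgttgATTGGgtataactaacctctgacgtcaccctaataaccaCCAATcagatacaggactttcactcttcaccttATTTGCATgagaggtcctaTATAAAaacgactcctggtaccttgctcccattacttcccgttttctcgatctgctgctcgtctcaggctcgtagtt
ZNF528: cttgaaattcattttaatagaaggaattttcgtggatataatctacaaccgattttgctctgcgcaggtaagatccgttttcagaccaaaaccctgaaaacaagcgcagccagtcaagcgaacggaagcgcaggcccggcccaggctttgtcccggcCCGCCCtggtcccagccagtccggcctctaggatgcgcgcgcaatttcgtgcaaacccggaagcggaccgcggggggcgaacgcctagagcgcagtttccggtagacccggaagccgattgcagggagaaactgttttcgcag
ZNF528-AS1: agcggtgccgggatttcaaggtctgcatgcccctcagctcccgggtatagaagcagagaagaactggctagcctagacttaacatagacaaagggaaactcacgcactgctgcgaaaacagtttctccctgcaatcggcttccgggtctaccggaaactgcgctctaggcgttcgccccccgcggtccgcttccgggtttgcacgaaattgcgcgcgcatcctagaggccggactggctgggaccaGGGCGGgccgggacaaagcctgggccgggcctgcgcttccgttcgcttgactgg
The CXCL14 window (chr5:135578942-135579241, minus strand) and the DAAM2 window (chr6:39792126-39792425, plus strand) held 4 GC boxes each, some of them overlapping. The TAGLN3 window (chr3:111999083-111999382, plus strand) held 2 CCAAT boxes, and the RNASE1 window (chr14:20802795-20803094, minus strand) held none of the 4 motifs. DAAM2, TAGLN3 and RNASE1 have 2 windows each, and the windows not shown held 1 GC box, no motif and 1 CCAAT box. The H2BC12 window (chr6:27146809-27147108, minus strand) reached to the start of H2AC12 and held 3 TATAAA, 6 CCAAT and 1 octamer match. Another H2BC12 window, not shown (chr6:27146806-27147105), held the same numbers of matches. The ZNF528 window (chr19:52397599-52397898, plus strand) and the ZNF528-AS1 window (chr19:52397708-52398007, minus strand) share most of their bases and held 1 GC box each. Among 96 RefSeq windows of 60 shared genes, TATAAA was present in 14.6%, CCAAT in 37.5%, the octamer in 3.13% and the GC box in 55.2%. The shares over all 35116 windows were 11.5%, 34.6%, 1.77% and 45.0%. Those windows include genes that were not tested here, so they are no matched background. The median GC content was 65.0% for windows of tested genes and 58.7% for all windows. It was 61.0% for windows of the shared rises and 60.7% for those of the falls. Whether the motif shares differ from those of tested genes was not tested.

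Roles were assigned to the shared genes only, so the counts by role below have no share over all genes tested beside them. Secreted and matrix proteins made up 10 of the 80 shared genes, and 6 of them rose and 4 fell. The largest fall of all was that of RNASE1, the secreted pancreatic-type ribonuclease, with a mean log2 fold change of −2.63 (SE 0.238, limma adjusted p = 9.41e-07). Its level in U87MG was 9.16, 11.1 and 9.75 CPM in “Vec” against 0.489, 0.136 and 0 CPM in “WWOX”. In U251MG it was 17.5, 12 and 10.6 against 0, 0.644 and 0.541 CPM. In DBTRG-05MG it was 6.81, 1.03 and 7.77 against 0.0590, 0.778 and 0.685 CPM. The libraries of both variants did not overlap in these 3 lines. In T98G, RNASE1 was close to the limit of 3 tags in both variants, with 0.422, 0.0627 and 0.0778 against 0.186, 0 and 0 CPM, so this line added little beyond its sign.

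CXCL14, a chemokine that attracts immune cells and is lost in several epithelial tumors, fell by 2.23 on the log2 scale (SE 0.279, limma adjusted p = 5.66e-05). U251MG gave 41.7, 28.4 and 22.6 CPM in “Vec” against 0.892, 2.50 and 6.29 CPM in “WWOX”. DBTRG-05MG gave 24.0, 9.01 and 13.6 against 0.590, 1.23 and 2.88 CPM. These were the 2 lines with the higher levels, and the variants did not overlap in either. U87MG gave 0.923, 3.25 and 1.26 against 0.489, 0.136 and 0.339 CPM, also without overlap. T98G gave 0.844, 0.188 and 2.02 against 0, 0.223 and 0.198 CPM, where 1 “Vec” library lay among those of “WWOX”. RARRES2, the precursor of the chemoattractant chemerin, fell by 1.72 on the log2 scale (limma adjusted p = 0.0257), with values of −0.05, −2.76, −1.53 and −2.55 in U87MG, T98G, U251MG and DBTRG-05MG. IGFBP7, a secreted binder of insulin-like growth factors, had a mean of −0.69 (adjusted p = 0.037) and its larger changes in U87MG (−1.0) and T98G (−1.22).

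Among the secreted proteins that rose, INHBE, a beta subunit of the activin family, had a mean of 1.29 (SE 0.326, limma adjusted p = 0.044). U87MG gave 7.46, 1.16 and 1.33 CPM in “Vec” against 16.0, 28.7 and 30.3 CPM in “WWOX”. T98G gave 18.6, 15.5 and 24.3 against 43.3, 28.9 and 40.6 CPM. The variants were separate in both lines and overlapped in U251MG and DBTRG-05MG, where every value was at or below 3.29 CPM. The INHBE call was lost in 20 of 28 fits that left out 1 library or 1 line, with an adjusted p of 0.5 without U87MG. KCP, a secreted modulator of BMP and TGF-beta signalling, had the largest mean rise, 1.46 (SE 0.329, adjusted p = 0.0209). Its U87MG libraries gave 32.9, 11 and 6.73 CPM in “Vec” against 51.6, 64.1 and 60.9 CPM in “WWOX”, and those of U251MG 5.59, 1.51 and 2.88 against 65.1, 13.5 and 7.85 CPM. In T98G and DBTRG-05MG the KCP libraries overlapped, with log2 differences of 0.70 and 0.63. The KCP call was lost without U87MG (adjusted p = 0.21) and without U251MG (adjusted p = 0.0622). COL4A4, a chain of basement membrane collagen, rose by 0.81 with one of the more even patterns, 1.2, 0.46, 0.76 and 0.82 in the 4 lines (adjusted p = 0.00751), and the call was lost without U87MG (adjusted p = 0.103) and without DBTRG-05MG (adjusted p = 0.0538). THSD4, a matrix protein of the fibrillin microfibrils, gave a mean of 0.72, lost as a call in 18 of those 28 fits. SERPINA5, a serine protease inhibitor, gave 1.11, of which DBTRG-05MG contributed 2.79, with every “Vec” library there at or under 3 tags. In U87MG, SERPINA5 was 0 CPM in every “Vec” library and 0, 0 and 0.0847 CPM in “WWOX”, so this line added little beyond its sign. HGF, the ligand of the MET receptor, gave 0.95, of which U87MG contributed 2.76 and U251MG 0.05. Every U251MG library was at or under the limit of 3 tags for HGF.

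**Figure D2:**
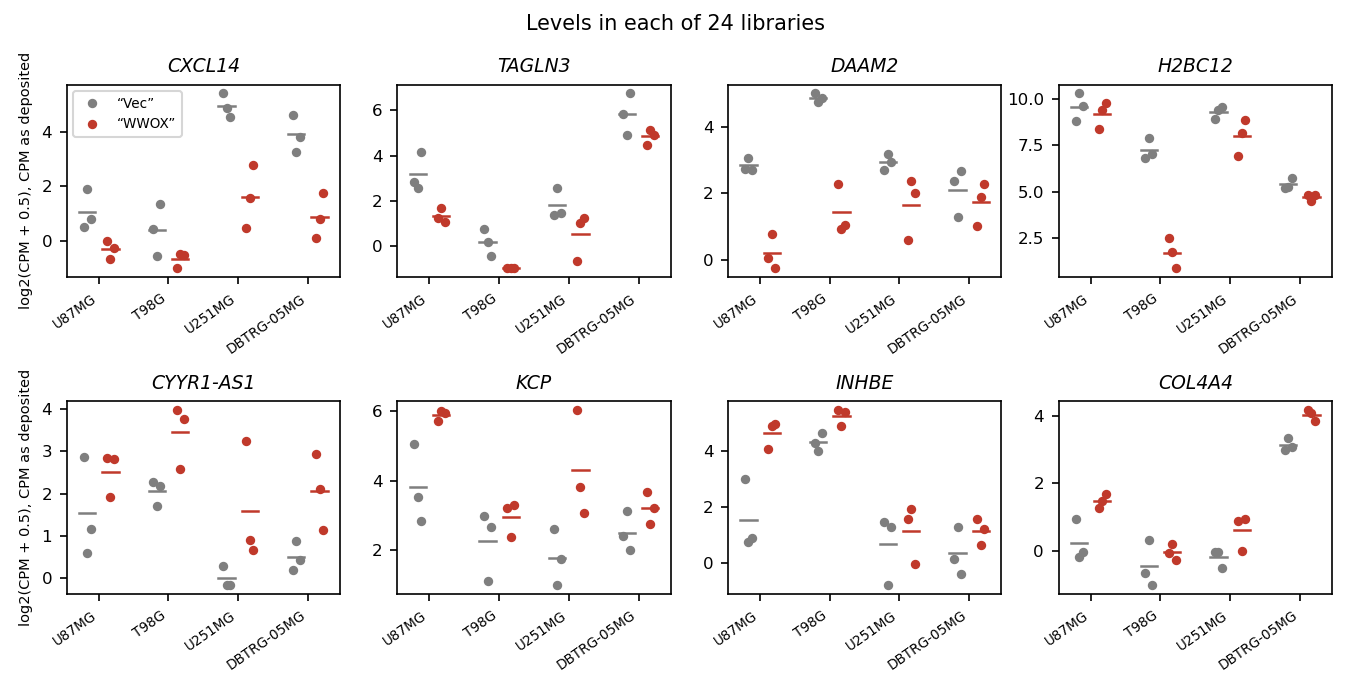
The level of 8 shared genes is plotted for each of the 24 libraries, with log2(CPM + 0.5) of the deposited CPM on the vertical axis and the variants of each line side by side. CXCL14, TAGLN3 and DAAM2 lie lower in “WWOX” without overlap in 3 of the 4 lines each, and the 4 genes that rose overlap in at least 1 line each.

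Cell surface and adhesion genes were 9 of the 80, with 4 rises and 5 falls. S1PR1, a receptor of sphingosine-1-phosphate, rose by 1.00 (SE 0.242, limma adjusted p = 0.034), with 1.86 in U87MG, 0.91 in T98G, 0.71 in DBTRG-05MG and 0.53 in U251MG. U87MG alone passed the threshold by itself (adjusted p = 0.0339), although the variants were separate after scaling in T98G and DBTRG-05MG and overlapped in U87MG. The S1PR1 call was lost in 16 of 28 fits that left out 1 library or 1 line. The EPHB1 receptor kinase had a mean of 1.02, FERMT3, the integrin activator kindlin-3, 0.96, and the protocadherin PCDHB11 0.76. FERMT3 gave 2.04 in U87MG and 1.47 in T98G, but 0.12 in U251MG and 0.22 in DBTRG-05MG. Among the falls, THY1 (CD90, a surface glycoprotein) had a mean of −0.76, SIRPA, the receptor of CD47, −0.83, the transmembrane protein CDCP1 −0.93, the axon guidance protein SEMA6B −0.93, and the desmosomal plakophilin PKP3 −0.86. The SIRPA change was mostly that of DBTRG-05MG, with −2.20 there and between −0.22 and −0.52 elsewhere, and its 4 values differed between lines (limma F test, adjusted p = 0.0149).

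Intracellular signalling genes formed a set of 12, with 8 rises and 4 falls. DAAM2, a formin that acts with Dishevelled in Wnt signalling, fell by 1.96 on the log2 scale (SE 0.239, limma adjusted p = 4.13e-05). T98G gave 31.5, 26.1 and 28.3 CPM in “Vec” against 4.37, 1.41 and 1.58 CPM in “WWOX”. U87MG gave 6.11, 7.88 and 6.03 against 0.551, 1.22 and 0.339 CPM, and U251MG 6, 8.59 and 7.23 against 1.03, 4.65 and 3.52 CPM. The variants were separate in these 3 lines. In DBTRG-05MG they overlapped, with 4.65, 1.93 and 5.86 against 1.53, 3.24 and 4.39 CPM, and the 4 changes differed between lines (F test adjusted p = 0.0314). RAP1GAP, which inactivates the small GTPase RAP1, rose by 1.08 (adjusted p = 0.00918). Its 3 “Vec” libraries of U87MG held 0.0710 to 0.210 CPM, at or under the limit of 3 tags, and its “WWOX” libraries 6.18, 3.12 and 2.79 CPM. Without U87MG the RAP1GAP call was lost (adjusted p = 0.521). Enzymes and channels of phosphoinositide and calcium signalling moved both ways, with the phosphatase INPP4B at 0.71, the diacylglycerol kinase DGKD at 0.45, the kinase CAMK2D at 0.57, the calcium channel ITPR1 at 0.59 and the PI3-kinase subunit PIK3CD at −0.66. INPP4B held at most 0.206 CPM in any U251MG library, at or under the limit of 3 tags, so this line added little beyond its sign. FNIP2, a partner of folliculin, had one of the more even rises, 0.67, 0.44, 0.87 and 0.31 in the 4 lines (adjusted p = 0.00823). MAP3K14, the NF-kappa-B-inducing kinase, had a mean of −0.72, and the lipid raft protein RFTN1 one of −0.85.

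The cytoskeletal genes were TAGLN3, TPM2 and KATNAL2. TAGLN3, a neuronal member of the transgelin family of actin-binding proteins, fell by 1.36 on the log2 scale (SE 0.243, limma adjusted p = 0.00312) with similar values in the 4 lines, −1.91, −1.21, −1.25 and −1.07. U87MG gave 6.67, 5.33 and 17.2 CPM in “Vec” against 1.84, 2.71 and 1.61 CPM in “WWOX”, and U251MG 2.11, 5.49 and 2.28 against 0.137, 1.50 and 1.83 CPM. T98G gave 1.2, 0.627 and 0.234 CPM in “Vec” and 0 in all 3 “WWOX” libraries, so its value is set in part by the pseudocount. The variants did not overlap in these 3 lines. In DBTRG-05MG, where TAGLN3 was highest, 1 “WWOX” library lay within the “Vec” range, with 57.6, 29.9 and 108 against 21.8, 34.9 and 29.6 CPM. Without U87MG the TAGLN3 call was lost (adjusted p = 0.0885). TPM2, a tropomyosin of actin filaments, had a mean of −0.97 (adjusted p = 0.00674), of which U87MG held −2.45 and T98G −0.13, and its call was lost without U87MG (adjusted p = 0.486). TAGLN, a relative of TAGLN3, was called in the mean with mixed signs and was no shared gene, with 5.38, −1.05, 0.09 and 4.36 in the 4 lines.

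Chromatin and transcription genes were 16 of the 80, with 6 rises and 10 falls. H2BC12 and H2AC12, which encode core histones H2B and H2A, lie head to head on chromosome 6 with 250 bases between them. H2BC12 (chr6:27146361-27146855) fell by 2.02 on the log2 scale (SE 0.245, limma adjusted p = 4.13e-05). T98G gave 111, 236 and 132 CPM in “Vec” against 5.21, 2.89 and 1.32 CPM in “WWOX”. U251MG gave 485, 680.2 and 767 against 120.2, 293 and 462 CPM, and DBTRG-05MG 36.1, 37.3 and 53.7 against 27.4, 22.3 and 28.0 CPM. Variants were separate in these 3 lines and overlapped in U87MG, and the changes differed between lines (F test adjusted p = 8.87e-05), with −5.55 in T98G. H2AC12 (chr6:27147106-27147562) had a mean of −2.33 (SE 0.435, adjusted p = 0.00468) and its largest value in T98G as well, −5.69. Without T98G neither call held, with adjusted p-values of 0.151 for H2BC12 and 0.283 for H2AC12. H4C4 and H4C13, which encode histone H4, had means of −1.28 and −0.79, and the H4C4 call was lost in 11 of 28 fits that left out 1 library or 1 line. Core histone genes share near-identical sequences, so their tags may be split between copies, and the values of single histone genes are uncertain to that extent.

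Histone genes were counted together by symbol only after these values were seen. Of 58 such genes tested, 40 were lower and 1 higher in all 4 lines, and 53 had a negative mean. Their median mean log2 fold change was −0.73, against −0.01 over all genes tested. The mean level of the 58 genes overlapped between variants in all 4 lines. Its difference ran from −0.47 in DBTRG-05MG to −1.16 in U251MG. In the mean, 7 of the 58 passed the test (12.1%, against 1.63% of all genes tested), 5 lower and 2 higher, and 5 of these 7 were shared genes.

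Other chromatin regulators were lower in “WWOX”, among them KDM1A, the histone demethylase LSD1, with the most even changes of the group, −0.42, −0.55, −0.57 and −0.38 (adjusted p = 0.0305), the histone H3.3 chaperone DAXX with a mean of −0.42, and the chromodomain protein CDYL2 with −0.98. Of the transcription factors, TEAD2, a DNA-binding partner of YAP, had a mean of −1.08, FOXF1 one of −1.15 and SP5, a Wnt target, one of −0.80, while OTX1 had 0.56 and HIVEP2 0.52. CDYL2 had −2.25 in U251MG and −1.44 in DBTRG-05MG, but −0.08 in U87MG and −0.17 in T98G (F test adjusted p = 0.00281). TEAD2 had its largest change in U87MG, −2.52, and its smallest in T98G, −0.18 (F test adjusted p = 0.0406). FOXF1 had its largest change in DBTRG-05MG, −3.56. There, 15.5, 11.6 and 5.86 CPM in “Vec” stood against 0.531, 0.324 and 0.343 CPM in “WWOX”. In U87MG no library held more than 0.155 CPM of FOXF1, at or under the limit of 3 tags.

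ZNF528 and its antisense neighbour ZNF528-AS1 are divergent genes on chromosome 19 whose starts lie 58 bases apart, and both rose. ZNF528 had a mean of 0.81 (adjusted p = 0.0161) and ZNF528-AS1 one of 0.93 (adjusted p = 0.00971). Both were near 0 in “Vec” of U87MG, with at most 0.355 CPM for ZNF528 and 0.0701 CPM for ZNF528-AS1. In the “WWOX” libraries of U87MG, ZNF528 gave 5.63, 3.19 and 1.69 CPM and ZNF528-AS1 6.18, 1.56 and 1.78 CPM. In the other 3 lines the variants overlapped for both genes and the changes were between 0.16 and 0.41, and without U87MG the ZNF528-AS1 call was lost (adjusted p = 0.545). Of the other non-coding shared genes, CYYR1-AS1 rose with a mean of 1.34 (SE 0.292, adjusted p = 0.0157) and even values of 0.93, 1.39, 1.57 and 1.47. Its libraries were separate in T98G, with 4.36, 2.76 and 4.05 CPM in “Vec” against 15.2, 5.49 and 13.1 CPM in “WWOX”, and in U251MG and DBTRG-05MG. The CYYR1-AS1 call was lost without T98G (adjusted p = 0.0755) and without DBTRG-05MG (adjusted p = 0.0978). MAP3K4-AS1 had a mean of −0.75. These antisense genes overlap genes on the other strand, as did 49 of the 80 shared genes. The share over all genes tested was not counted. Whether the counting of tags used strand was not given in the sources used here.

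Enzymes, transporters and metal-binding proteins made up 13 of the 80, with 6 rises and 7 falls. The cholesterol exporter ABCA1 had a mean of 0.90, with 2.29 in T98G and 1.03 in U251MG, while DBTRG-05MG gave 0.0027 and U87MG 0.27. The sphingolipid enzyme KDSR had a mean of 0.45, of which U87MG held 1.12 and T98G 0.0009. Both genes had mixed signs after the correction for GC content and length. TDO2, which degrades tryptophan, had a mean of 0.94, with 2.56 in U87MG. Among the falls were the ketone body enzyme BDH1 (−0.81), the NAD synthesis enzyme NAPRT (−0.74), the phospholipid transporter ABCB4 (−0.68) and the glycosyltransferase MGAT5B (−0.68), whose call was lost in 22 of 28 fits that left out 1 library or 1 line. NAPRT was at or under the limit of 3 tags in every U251MG library. MT1E, a metallothionein that binds zinc and copper, had a mean of −0.83 (SE 0.155, adjusted p = 0.00482). In T98G it gave 99.3, 86.8 and 70.8 CPM in “Vec” against 27.2, 39.9 and 15.9 CPM in “WWOX”, which did not overlap, and without T98G the call was lost (adjusted p = 0.131). Metallothionein genes are also near-identical, and of the 6 tested, 2 were lower in all 4 lines, with a median of −0.56. The 2 RNA processing genes, the exosome subunit EXOSC3 and the rRNA methyltransferase NSUN5, fell, with means of −0.40 and −0.92. NSUN5 had −2.72 in U87MG and between −0.15 and −0.51 elsewhere (F test adjusted p = 0.0113). The other 12 shared genes, 4 higher and 8 lower, had means between −1.03 for ECHDC2 and 1.10 for TPD52L1.

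A shared sign did not mean a shared size. The largest of the 4 changes of a shared gene was a median of 7.24 times the smallest, 44 of the 80 had all 4 changes at 0.2 or more in size, and 7 had all 4 at 0.5 or more. The 4 changes differed between lines in 17 of the 80 (F test; 394 of all genes tested, 3.31%). The variants did not overlap in 3 lines for 17 of the 80, in 2 lines for 42 and in 1 line for 21. By line, they did not overlap for 46 of the 80 in U87MG (17.4% of all genes tested, in either direction) and 36 in T98G (15.9%). The counts were 30 in U251MG (10.4%) and 44 in DBTRG-05MG (20.0%). No gene at all was separate in one direction in all 4 lines (0%), and 64 genes (0.538%) were in at least 3. In single lines, 27 of the 80 were past the threshold in U87MG (373 of all tested, 3.13%), 10 in DBTRG-05MG (117, 0.983%), 11 in T98G (125, 1.05%) and 5 in U251MG (36, 0.303%). No line alone reached the threshold for 33 of the 80. When 1 line was left out of the fit, which also leaves fewer libraries, 18 of the 80 were still called without U87MG, 41 without T98G, 66 without U251MG and 35 without DBTRG-05MG. These shares rest on the libraries that chose the genes and describe them only. Levels also limit what a shared sign shows. Under 1 CPM in at least 1 line were the averages of 32 of the 80, and 20 averaged under 5 CPM over all libraries. By line and variant, from 1 (DBTRG-05MG “Vec”) to 10 (U87MG “Vec”) of the 80 were at 3 tags or fewer in every library.

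Direction in a line that had no part in the choice was read by choosing genes from 3 lines and looking at the other. Genes chosen without U87MG had the same direction there in 18 of 28 cases, 64.3% (95% Wilson interval 45.8 to 79.3), against 65.1% of all genes with 1 sign in the 3 lines. Without T98G the share was 43 of 91, 47.3% (37.3 to 57.4), against 55.8%. Without U251MG it was 151 of 249, 60.6% (54.5 to 66.5), against 56.0%, and without DBTRG-05MG 36 of 51, 70.6% (57 to 81.3), against 69.2%. The background share lay inside the interval in all 4 lines in this fit. It lay outside with CPM as deposited for T98G (43.4%, interval 32.9 to 54.6, against 54.8%) and with a pseudocount of 0.1 for U251MG (63.4%, interval 57.3 to 69.1, against 56.0%). It also lay outside after correction for GC content and length for U87MG (47.7%, interval 36.0 to 59.6, against 62.1%) and for T98G (40.9%, interval 34.8 to 47.2, against 52.7%). The intervals treat genes as independent, which they are not. Across all genes tested, the changes of pairs of lines had Spearman correlations between −0.11 (T98G and U251MG) and 0.23 (T98G and DBTRG-05MG), a description over genes that are not independent replicates.

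**Figure D3:**
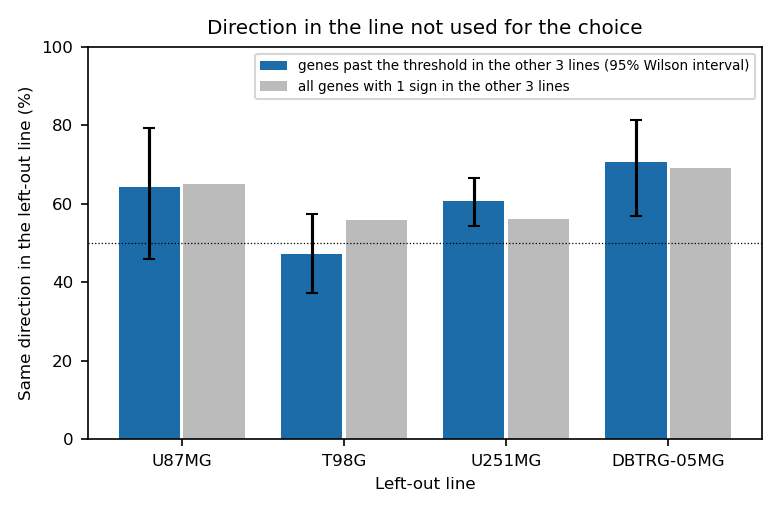
The percentage of genes chosen in 3 lines that keep their direction in the left-out line is plotted with its 95% Wilson interval, beside the percentage over all genes with 1 sign in the 3 lines. The background lies inside the interval of the chosen genes for each of the 4 lines in the fit plotted.

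The shared genes that fell had a median gene GC content of 54.8%, the rises one of 47.9%, and all genes tested one of 48.0%. Over all genes the mean log2 fold change had a Spearman correlation of −0.27 with GC content, and single lines ranged from −0.30 in DBTRG-05MG and −0.22 in T98G to −0.16 in U87MG and 0.01 in U251MG. When libraries were corrected for the GC content and length of their genes, 70 of the 80 were again called with 1 sign, among 184 such genes. The part of GC content in the direction of single genes was not tested. Chromosome 6 held 9 of the 80 (11.3%, against 5.34% of the genes tested), 2 higher and 7 lower, 4 of them histone genes.

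Pathway lists were read by the number of members with 1 sign in all 4 lines and by their median, and in most lists no member passed the test in the mean. In the list of DNA replication and S phase genes, 19 of 33 (57.6%) were lower in all 4 lines and 0 higher, and all 33 means were negative, with a median of −0.42. The smallest adjusted p was that of RPA1, a subunit of the single-strand DNA binding complex, at 0.0857 with a mean of −0.41. MCM2, a subunit of the replicative helicase, had a mean of −0.90 (adjusted p = 0.146). In the G2 and mitosis list, 14 of 31 (45.2%) were lower and 0 higher, all 31 means were negative and the median was −0.48. KIF20A, a mitotic kinesin, had a mean of −0.95 (adjusted p = 0.316). In U251MG the libraries had mean levels of this list between 2.42 and 5.58 in “WWOX” and between 4.48 and 6.22 in “Vec” on the log2 scale, where the “WWOX” libraries spanned a wider range than those of “Vec”. The levels of both lists overlapped between variants in all 4 lines. Leaving out 1 library at a time moved the median of the G2 and mitosis list between −0.68 and −0.25, and that of the replication list between −0.53 and −0.31. Without the line U251MG the median of the G2 and mitosis list was −0.22.

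Genes of the unfolded protein response and ER folding went the other way, with 11 of 26 (42.3%) higher in all 4 lines, 0 lower, 25 positive means and a median of 0.35. SEC11C, a signal peptidase subunit, came nearest to the threshold, with a mean of 0.71 (adjusted p = 0.0576). Of the ATF4 integrated stress response genes, 10 of 25 (40.0%) were higher in all 4 lines and 0 lower, 23 means were positive and the median was 0.45. The cystine transporter gene SLC7A11 gave 1.12 (adjusted p = 0.197), the stress protein gene NUPR1 1.13 (adjusted p = 0.227) and the transcription factor gene ATF3 1.02 (adjusted p = 0.251). The median of the ATF4 list was 0.97 in U87MG and between 0.27 and 0.31 in the other 3 lines, and it lay between 0.22 and 0.62 when 1 library was left out. The variants were separate for the mean level of this list in T98G and overlapped in the other 3 lines. The median of the unfolded protein response list was −0.05 in U251MG and 0.35 to 0.70 elsewhere.

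**Figure D4:**
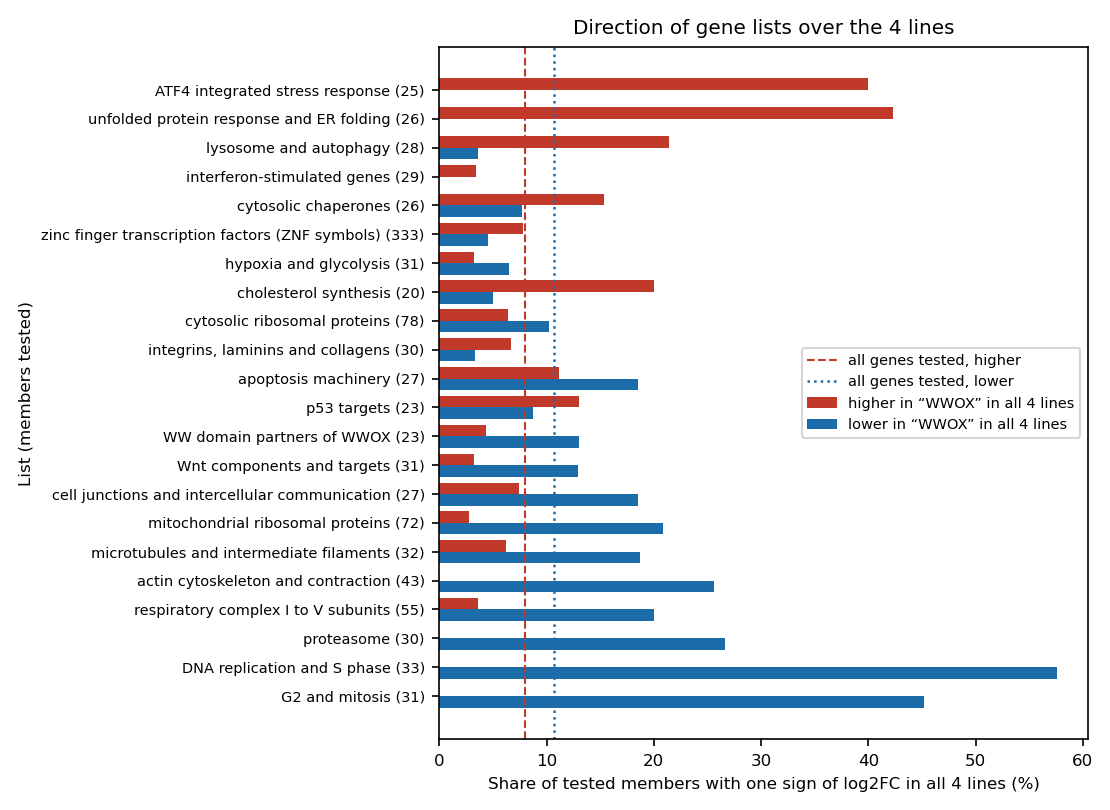
The percentage of tested genes with 1 sign in all 4 lines is plotted for the 22 pathway lists, split into higher and lower, beside all genes tested (7.97% higher and 10.7% lower). The replication (57.6%) and the G2 and mitosis list (45.2%) have the largest lower shares, and the unfolded protein response (42.3%) and ATF4 list (40.0%) the largest higher shares.

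**Figure D5:**
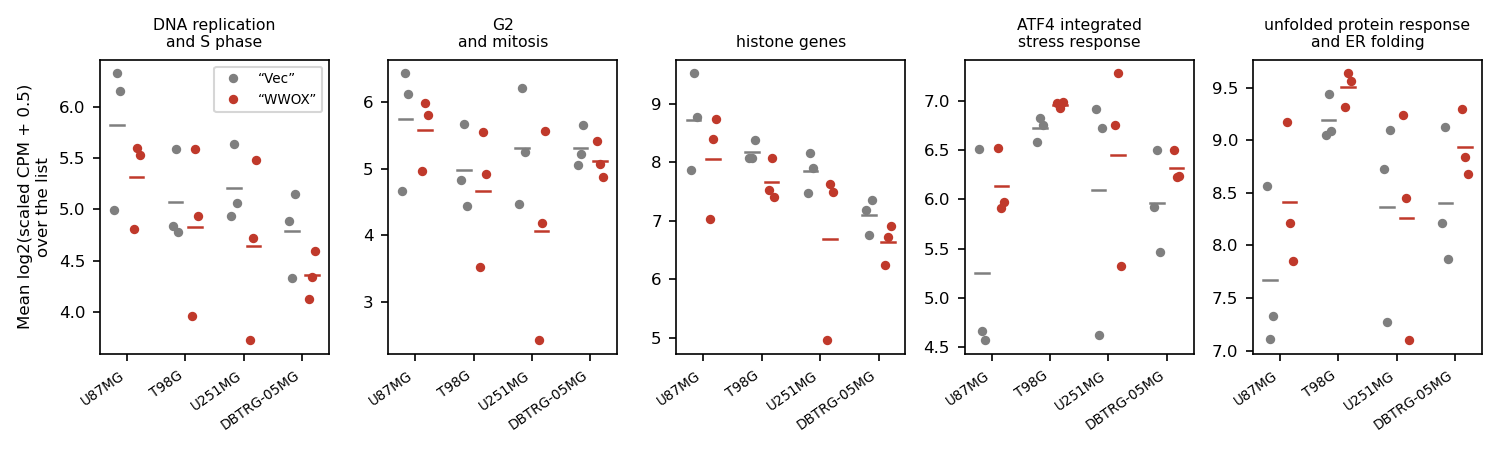
The mean log2(scaled CPM + 0.5) over the tested members of the replication, G2 and mitosis, histone, ATF4 and unfolded protein response genes is plotted for each library, by line and variant, with a bar at the mean of 3 libraries. The “Vec” and “WWOX” libraries of the ATF4 list are separate in T98G, while those of the replication, mitosis, histone and unfolded protein response genes overlap in every line.

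Among the remaining lists, lower signs outnumbered higher ones for the actin cytoskeleton (11 lower and 0 higher of 43, median −0.11), the proteasome (8 and 0 of 30, −0.16), microtubules and intermediate filaments (6 and 2 of 32, −0.09), mitochondrial ribosomal proteins (15 and 2 of 72, −0.09) and subunits of the respiratory complexes (11 and 2 of 55, −0.15). Over all genes tested, 10.7% were lower and 7.97% higher in all 4 lines. Line medians were above 0 in T98G and DBTRG-05MG for actin (0.02 in each) and the proteasome (0.08 and 0.002). They were also above 0 in T98G for microtubules (0.09) and mitochondrial ribosomal proteins (0.05), and in U87MG for respiratory complexes (0.01). U251MG gave −0.42 for actin and −0.57 for the proteasome, and without that line their medians were −0.04 and −0.03. TPM2 was the only shared gene of the actin list. TUBB2B, a neuronal beta tubulin, was called in the microtubule list with mixed signs. Higher signs outnumbered lower ones for lysosome and autophagy (6 higher and 1 lower of 28, median 0.14), cholesterol synthesis (4 and 1 of 20, 0.01) and cytosolic chaperones (4 and 2 of 26, 0.03). Line medians went both ways for cholesterol synthesis, at 0.56 for U87MG, 0.02 for T98G, −0.40 for DBTRG-05MG and −0.46 for U251MG. The mean level of that list was higher in “WWOX” of U87MG and lower in “WWOX” of DBTRG-05MG, both without overlap. For cytosolic chaperones and for lysosome and autophagy, only DBTRG-05MG had a negative median, −0.11 and −0.06. Lists tied to the known partners and functions of WWOX had medians near that of all genes. The list of WW domain partners, which includes WWOX itself, had 1 higher and 3 lower of 23 (median −0.06). The p53 targets had 3 and 2 of 23 (−0.05), apoptosis machinery 3 and 5 of 27 (−0.04), and Wnt components and targets 1 and 4 of 31 (−0.06). Cell junctions gave 2 and 5 of 27 (−0.07), integrins, laminins and collagens 2 and 1 of 30 (−0.04), hypoxia and glycolysis 1 and 2 of 31 (0.02), and cytosolic ribosomal proteins 5 and 8 of 78 (−0.02). Interferon-stimulated genes gave 1 and 0 of 29 with a median of 0.04, which was −0.14 without the library labelled U251MG “WWOX” replicate 2. Of 333 genes with ZNF symbols, zinc finger transcription factors by name, 26 were higher and 15 lower in all 4 lines, and 7 rises and 3 falls passed the test in the mean (3.0%, against 1.63% of all genes tested), of which ZNF528 alone had 1 sign. The ZNF genes with the smallest p, ZNF431 (mean 1.05), ZNF726 (0.77) and ZNF296 (−0.59), had mixed signs and their largest change in U87MG.

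The study names PRKRA, PNMA2, GPS1 and ARF3 as driver genes found in all 4 lines. It chose drivers by their correlation with a module of co-expressed genes and with the variant, on resampled counts. That measure differs from the test used here. Each of these genes had 1 sign in all 4 lines, and none passed the threshold in the mean. Under other settings PNMA2 passed in 3 alternative fits and 5 that left out a library or line, PRKRA in 3 and 3, GPS1 in 2 and 1, and ARF3 in 1 and 2. PRKRA, an activator of the kinase PKR, gave 0.48 (adjusted p = 0.07) and the neuronal antigen gene PNMA2 0.68 (adjusted p = 0.058). GPS1, a subunit of the COP9 signalosome, gave −0.47 (adjusted p = 0.135), and ARF3, a small GTPase of the Golgi, −0.40 (adjusted p = 0.11).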

How the data were processed

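CAGE-Seq libraries of 4 lines were mapped by the authors to hg38 with STAR, handled with SAMtools and, per the submitters' processing notes, analysed with limma 3.42. The deposited values are CPM per gene, with Ensembl gene IDs of GENCODE 44, by which 43033 of 43037 genes were matched to symbols. Every deposited CPM value was a whole number of tags within 0.01, giving totals of 10756072 to 16953689 tags per library (median 14584829). Floors of 3 tags cover counting error only.

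CPM were scaled by TMM factors (30% of M and 5% of A values trimmed), taken as log2(CPM + 0.5) and fitted in limma 3.58.1 (R 4.3.3) with trend for 8 groups of 3 libraries. All adjusted p-values are two-sided Benjamini-Hochberg values from this fit over 11900 autosomal genes with 5 CPM in at least 1 library, with a threshold of 0.05. Another 427 genes on X, Y or M, or unmatched, passed the filter and were not tested. Differences between lines were tested by limma's F test. WWOX was also permuted exactly within lines (160000 arrangements).

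Named genes were WWOX, 4 genes the study names for all lines, the 12 rises and 12 falls with the largest smallest-of-4 change, the 4 of each with the largest mean, and up to 3 called members of each of 22 pathway lists. Other shared genes were named to describe their roles, after their values were seen. One gene the rule named is not reported here. The members, lists and alternatives were chosen with earlier results of these data known. Alternatives covered the pseudocount, filter, scaling, model, replicate block, tool (edgeR 4.0.16, DESeq2 1.42.0, limma-voom), GC and length correction, and leaving out libraries or lines. The scripts were tested on simulated data. Tables were made in Python 3.11.15 (pandas 2.3.3, numpy 2.4.6, scipy 1.17.1), and figures in matplotlib 3.10.9.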

Additional observations from a re-analysis of the deposited data

Results flagged for a closer look

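Several genes were called in the mean while their changes differed between the 4 lines by the F test. This held for 17 of the 80 shared genes. Those among them named by rule were H2BC12 (adjusted p = 8.87e-05), RNASE1 (0.00265), ZNF528-AS1 (0.0232), DAAM2 (0.0314), SERPINA5 (0.0332) and TPM2 (0.0485), where the sign was common to all lines and the size was not. Of the rest, FOXF1 (4.79e-05) and BDH1 (0.000129) had the smallest values. The list members with mixed signs named by rule were TAGLN (3.55e-07), ZNF431 (2.25e-06), ZNF726 (1.06e-05), ZNF296 (4.51e-05) and TUBB2B (0.0182). The 2 groups of genes were named by different rules, so their numbers cannot be compared.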

How the results depend on the processing

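The count of genes called in the mean (194, 80 of them shared) changed with the processing. Without a filter on low values 344 were called. With a mean of 5 CPM or more, 82 were called and 40 shared. Additive terms gave 5 and 4, and the 4 line differences as replicates 0 and 0. edgeR gave 97 and 52, limma-voom 127 called, DESeq2 157 shared with 52.9% of its calls higher against 39.7%, and the correction for GC content and length 351 and 184. A fit with the replicate number as a block gave 115 and 44 genes, and with the GC correction 121 shared. Deviations of libraries with the same number in a line correlated between −0.55 and 0.51. These few values cannot show whether the numbers pair the libraries. Why the block gave fewer genes was not tested. Leaving out 1 library gave 132 to 745 called and 49 to 454 shared genes. The highest counts came when the library labelled U251MG “WWOX” replicate 2 was left out, leaving out T98G “Vec” replicate 2 gave 126, and 49 or 53 shared genes were called without DBTRG-05MG “Vec” replicate 1, DBTRG-05MG “WWOX” replicate 2, T98G “Vec” replicate 3, T98G “WWOX” replicate 3 or U87MG “Vec” replicate 2. Without the line U87MG 57 were called and 34 shared, without U251MG 403 and 255. Genes differing between lines numbered 394, 157 with a mean of 5 CPM or more and 673 after the GC correction. With a mean of 5 CPM or more, the share keeping its direction in DBTRG-05MG was 22 of 27, 81.5% (Wilson interval 63.3 to 91.8). The background share was 70.6% and lay inside this interval. WWOX passed the threshold with DESeq2 (0.39), after the GC correction (0.29) and without U251MG (0.47). Over the fits without 1 library its value ran from 0.28 to 0.42, the latter, which passed, without the U251MG library that gave the highest counts when left out. ZNF726 was −0.11 without U87MG. The cause of these shifts was not tested, beyond fewer genes or samples where some were left out. For the 37 named genes, fits other than leave-outs kept the call 391 times, lost it 107 times and gained it 11 times, and leave-outs kept it 872 times, lost it 150 times, gained it 13 times and turned it once. With 3 libraries per variant, the median SE of a mean log2 fold change was 0.161.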
